A study of Mus musculus with 6 samples.

Results

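The Myc, Max and Mxd network is a family of transcription factor genes, described here in haematopoietic stem cells (HSCs) of old and young mice. Its 10 genes were taken by symbol through the GRCm38 annotation. Of these, 9 had a row among the 16312 genes of the count table, and all 9 cleared the low-count filter and entered the test. Mycl was not analysed here. The bone marrow of male C57BL/6N mice was sorted for HSCs by flow cytometry, and low-input RNA libraries were read as single ends. The old group held 3 samples of mice aged 22 months and the young group 3 samples of mice aged 8 to 12 weeks. Both groups were labelled as B6 controls, no allele or drug is named for either, and the titles of all 6 samples name parabiosis, the surgical joining of animals. The series design calls the samples of a group biological replicates. The labels give no surface markers of the sort, no number of cells and no word on pooling of animals.

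The proteins of this network bind DNA as pairs through a helix-loop-helix and leucine zipper. Max is the common partner. Myc, Mycn and Mycl pair with Max on the E-box sequence and raise transcription of genes for growth, ribosome production and cell division. The Mxd proteins (Mxd1, Mxd3, Mxd4 and Mxi1) and Mnt pair with Max on the same sequence and recruit the Sin3 and histone deacetylase corepressors, and Mga joins Max in a Polycomb complex. In mouse HSCs Myc and Mycn act in part redundantly, in the balance between self-renewal and differentiation and in survival.

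Promoter sequences were taken from RefSeq (GRCm38.p6) as windows from 250 bases before to 50 bases after each gene start, and 9 of the 10 members matched by symbol, the exception being Myc. The E-box of the network was searched as CACGTG, which reads the same on both strands. It lay in the promoters of 3 of the 9 matched members, Max, Mnt and Mxd4 (33.3%), against 10.5% of the 12471 genes of the count table with a window of this length. The stretches of 30 bases around these E-boxes are shown because they are the sites that the network's own proteins can bind, with the E-box in capitals.
Max, chr12:76962234-76962263, minus strand: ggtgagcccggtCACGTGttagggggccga
Mnt, chr11:74830789-74830818, plus strand: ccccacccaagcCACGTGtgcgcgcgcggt
Mxd4, chr5:34187912-34187941, minus strand: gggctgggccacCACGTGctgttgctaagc
The E-box began 3 bases before the RefSeq start of Max, 123 before that of Mnt and 219 before that of Mxd4.

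Mycn, the only member that passed the main test of old against young mice, had no CACGTG in its window. Its upstream stretch is shown from 250 to 79 bases before the RefSeq start, which ends where the GENCODE gene begins. The capitals mark the motif TTTGGCGC, a form of the site bound by E2F factors of the cell cycle. This motif was searched on both strands and was chosen after this sequence had been read.
Mycn, chr12:12941915-12942086, minus strand: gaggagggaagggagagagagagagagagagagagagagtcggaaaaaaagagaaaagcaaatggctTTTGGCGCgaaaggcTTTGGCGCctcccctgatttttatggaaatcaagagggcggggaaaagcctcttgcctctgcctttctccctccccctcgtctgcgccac
The motif began 183 and 168 bases before the start. Mycn was the only one of the 9 matched members with it, and it lay in 0.946% of the genes of the count table with a window. Since the motif was chosen from the Mycn sequence, its presence there was fixed in advance and gives no share to compare. A match of letters describes the sequence and shows no binding.

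The smallest library, old replicate 2, had 12494557 counts and the largest, young replicate 3, had 30931680. Levels are given as CPM, counts relative to the library size after TMM scaling, and fold changes as old over young with edgeR's quasi-likelihood test adjusted over all 14288 genes tested. In that fit 570 genes passed an adjusted p of 0.05, which is 3.99% of those tested, 350 higher (2.45%) and 220 lower (1.54%) in old mice, a split that became 310 higher and 298 lower when TMM factors were left out. Without 1 old library the count was 322, 345 and 245 for old replicates 1, 2 and 3. With all libraries 16.5% of the genes tested had an unadjusted edgeR p under 0.05. All 10 HSC markers checked were measured in every group, with a summed level of 3527 to 3880 CPM in old and 3281 to 3864 CPM in young libraries. Of these 10, 2 were called higher in old mice, Procr (log2 fold change 0.95) and Slamf1 (1.47), and none was called lower. An unadjusted edgeR p under 0.05 was reached by 6 of the 10. Kit, Mecom and Hlf were among those not called. Some markers of other cells also differed between the age groups. Of 16 tested monocyte and macrophage markers 9 were lower in old mice, with summed levels of 199 to 224 CPM in old and 221 to 261 CPM in young libraries, and Fcna, Cd5l, Adgre1, C1qb and Timd4 had no count in old libraries. Most of this sum was Lyz2 (171 to 199 CPM in old and 129 to 174 CPM in young libraries, not called), and without it the sum was 24.8 to 28.0 CPM in old and 86.9 to 96.4 CPM in young libraries. Of 14 erythroid markers 5 were lower (810 to 978 CPM in old and 883 to 1382 CPM in young libraries), and all 4 tested of 11 neutrophil markers were lower (3.52 to 8.57 CPM in old and 15.5 to 219 CPM in young libraries, Fcnb with no count in old ones). Most of the erythroid sum was Car2 (means of 762 CPM in old and 799 CPM in young mice, not called). Both sums were highest in young replicate 1. Young replicates 2 and 3 had erythroid sums of 926 and 883 CPM and neutrophil sums of 15.5 and 42.8 CPM. Of 10 endothelial markers 3 of 7 tested were higher (207 to 256 CPM in old and 129 to 201 CPM in young libraries), of 10 megakaryocyte and platelet markers 2 were higher (1054 to 1233 CPM in old and 714 to 839 CPM in young libraries), and none of 5 tested lymphocyte markers was called by edgeR, 1 with an unadjusted p under 0.05 (28.6 to 29.5 CPM in old and 29.1 to 39.9 CPM in young libraries). The part of these cells in the results below was not tested, and in bulk RNA fewer cells of a type and less RNA per cell cannot be told apart. The old libraries carry the consecutive numbers 28, 29 and 30 and the young ones 1, 5 and 24, so a step that followed these numbers cannot be told apart from age.

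Of the 9 members tested, 1 was called, Mycn, which was higher in HSCs of old mice. Mycn encodes N-Myc, an activator, and lies on chromosome 12 from 12936093 to 12941914 on the minus strand, with 3 exons in its longest coding transcript. It stood at 221, 201 and 210 CPM in old replicates 1, 2 and 3, against 131, 136 and 109 CPM in young replicates 1, 2 and 3. Every old library lay above every young one, and the lowest old value was further from the highest young value than the libraries of either group were from each other. The mean was 210 ± 10.1 CPM in old and 126 ± 14.4 CPM in young mice (SD, n = 3 each), a log2 fold change of 0.74 ± 0.12 SE (95% interval 0.48 to 1.01, 1.67-fold, edgeR adjusted p = 0.00511). Mycn stayed past the threshold in all 16 alternatives that were run, with log2 values from 0.65 to 0.81 and a highest adjusted p of 0.0380. The smallest count behind these values was 2391.

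Myc, which encodes c-Myc, the founding activator of the family, lies on chromosome 15 from 61985391 to 61990374 on the plus strand. It stood at 245, 242 and 260 CPM in old replicates 1, 2 and 3, against 362, 358 and 277 CPM in young replicates 1, 2 and 3. All 3 old libraries lay below all 3 young ones, but young replicate 3 was closer to the old libraries than to the other young ones. The mean was 249 ± 9.78 CPM in old and 333 ± 48.0 CPM in young mice (SD, n = 3 each), a log2 fold change of −0.42 ± 0.12 SE (95% interval −0.68 to −0.15), and Myc did not pass (edgeR adjusted p = 0.0860). Without young replicate 3 it passed, with a log2 value of −0.53 (adjusted p = 0.0213), and it also passed when TMM factors were left out (adjusted p = 0.0346), with DESeq2 (adjusted p = 0.0317) and with edgeR's likelihood ratio test (adjusted p = 0.0380). Over all 16 alternatives its log2 value stayed below 0, from −0.53 to −0.35, with adjusted p from 0.0213 to 0.277. Mycn and Myc were the 2 members of 9 whose groups did not overlap, where 22.4% of all tested genes had groups that did not overlap.

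**Figure D1:**
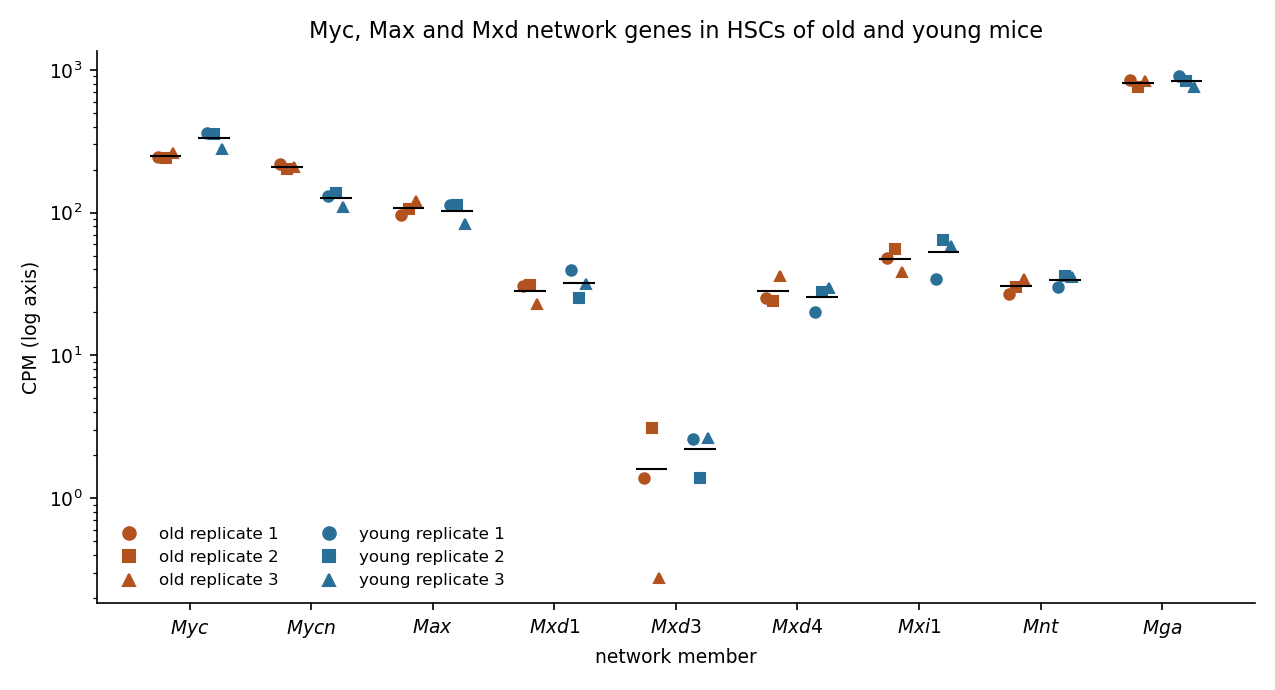
CPM on a log axis of the 9 tested members in the 3 old (left) and 3 young (right) libraries, with a symbol for each replicate and a black line at the mean of each group. Mycn sits between 201 and 221 CPM in old and between 109 and 136 CPM in young libraries, and the groups of Max, the Mxd genes, Mnt and Mga overlap.

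The sum of the Myc and Mycn transcripts was close in both age groups while its make-up differed. The sum stood at 465, 443 and 470 CPM in old replicates 1, 2 and 3, against 494, 494 and 386 CPM in young replicates 1, 2 and 3, so the old libraries lay within the range of the young ones. Its mean was 459 ± 14.5 CPM in old and 458 ± 62.2 CPM in young mice (SD, n = 3 each). The ratio of Mycn to Myc within a library, which no scaling of the library can change, was 0.902, 0.828 and 0.806 in old replicates 1, 2 and 3, against 0.363, 0.380 and 0.394 in young replicates 1, 2 and 3. Its mean was 0.845 ± 0.0504 in old and 0.379 ± 0.0156 in young mice, which is 2.23-fold higher in old mice, and the groups did not overlap. Young replicate 3, the lowest of the young libraries in Mycn and in Myc, had a ratio next to those of the other young libraries. Leaving out any 1 library moved the log2 difference of this ratio, 1.16, to between 1.11 and 1.19. The ratio was chosen after the values of its genes had been seen and was given no test. Per kilobase of transcript, Mycn made up 42.5% ± 1.44 of the Myc and Mycn level in old mice and 24.9% ± 0.770 in young mice (SD, n = 3 each).

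**Figure D2:**
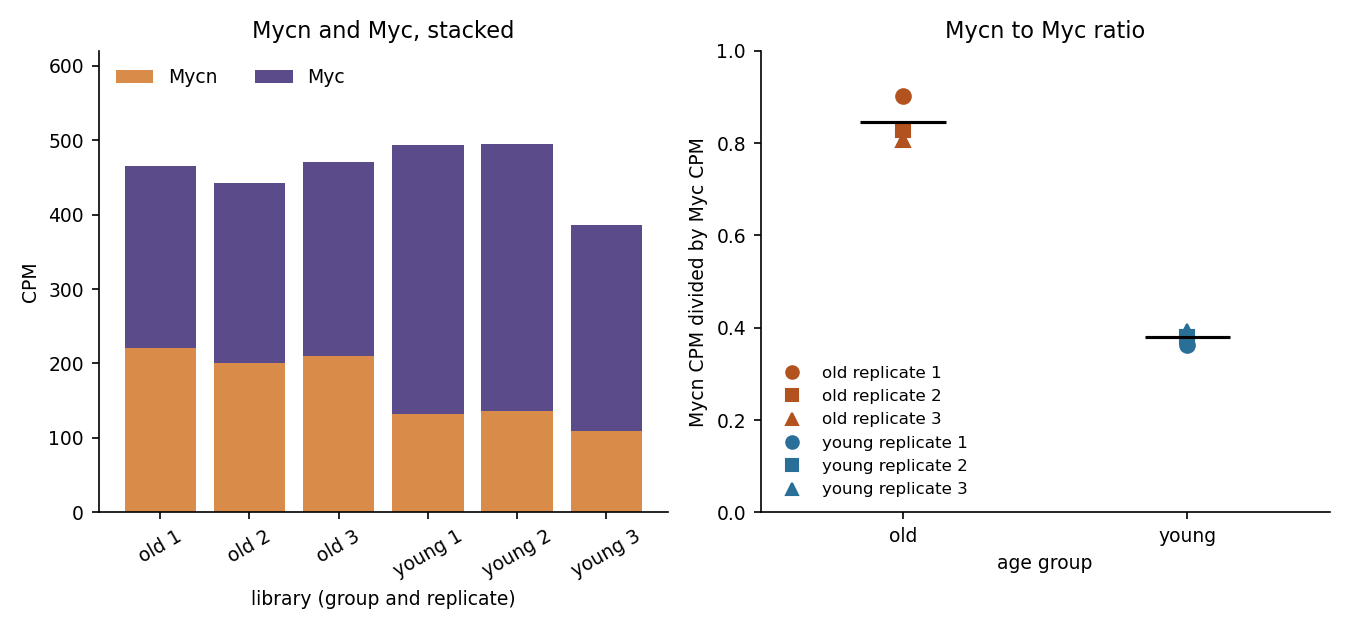
Left, CPM of Mycn and Myc stacked for each library; right, the CPM of Mycn divided by that of Myc in each library, with a line at the mean of each group. The stacks reach 443 to 470 CPM in old and 386 to 494 CPM in young libraries, and the ratio lies from 0.806 to 0.902 in old and from 0.363 to 0.394 in young libraries.

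Max, the shared partner of activators and repressors, did not pass the test. It lies on chromosome 12 from 76937269 to 76962201 and stood at 96.1, 106 and 121 CPM in old replicates 1, 2 and 3, against 113, 113 and 82.7 CPM in young replicates 1, 2 and 3. The groups overlapped, with old replicate 3 the highest and young replicate 3 the lowest of all 6. The log2 fold change was 0.07 ± 0.16 SE, and its 95% interval from −0.27 to 0.41 leaves room for changes of up to 1.33-fold upward and to 0.827 of the young level. Myc and Mycn summed stood at 3.37 ± 0.377 times the level of Max per kilobase in old mice and at 3.59 ± 0.132 times in young mice (SD, n = 3 each).

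None of the 4 Mxd genes, which encode repressors that pair with Max, passed the test or had an unadjusted edgeR p under 0.05. The age groups overlapped for each of these genes. Mxd1 stood at 30.6, 31.0 and 22.8 CPM in old replicates 1, 2 and 3, against 39.7, 25.4 and 31.8 CPM in young replicates 1, 2 and 3. Old replicate 3 was its lowest library and young replicate 1 its highest (log2 fold change −0.20 ± 0.22 SE, 95% interval −0.69 to 0.29). Mxi1, a repressor also called Mxd2, stood at 48.4, 55.4 and 38.3 CPM in old replicates 1, 2 and 3, against 34.5, 64.7 and 58.5 CPM in young replicates 1, 2 and 3. The young libraries spread more widely than the old ones and contained all 3 old values (−0.15 ± 0.24 SE, −0.67 to 0.36). Mxd4 stood at 25.3, 24.0 and 35.9 CPM in old replicates 1, 2 and 3, against 20.1, 27.6 and 29.7 CPM in young replicates 1, 2 and 3. Its highest value was in old replicate 3, the library with the lowest Mxd1 and, among old ones, the lowest Mxi1 (0.14 ± 0.24 SE, −0.38 to 0.65).

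Mxd3, a Mxd gene known from cells in S phase, was near the lower limit of measurement. It had 33, 37 and 6 counts in old replicates 1, 2 and 3, against 55, 35 and 86 counts in young replicates 1, 2 and 3, or 1.39, 3.10 and 0.275 CPM in old against 2.61, 1.37 and 2.63 CPM in young replicates. Old replicate 2 held the highest level and old replicate 3 the lowest of all 6, so the spread within the old group exceeded the difference between the groups (log2 fold change −0.50 ± 0.76 SE, 95% interval −2.16 to 1.16). Mxd3 overlaps Prelid1 on the opposite strand and Mxi1 overlaps Gm10197. Whether the counting used strand is not stated, so reads of these overlaps could have been shared.

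Mnt, a repressor expressed in resting and dividing cells alike, and Mga, a large Max partner with a second DNA-binding domain, did not pass either. Mnt stood at 26.9, 30.2 and 34.1 CPM in old replicates 1, 2 and 3, against 30.1, 35.8 and 35.7 CPM in young replicates 1, 2 and 3, and 2 of the old libraries lay within the young range (log2 fold change −0.16 ± 0.19 SE, 95% interval −0.57 to 0.26). Mga had the highest count of the network, with 853, 758 and 831 CPM in old replicates 1, 2 and 3, against 907, 832 and 762 CPM in young replicates 1, 2 and 3. The groups covered nearly the same range, and Mga had the narrowest interval of the members (−0.03 ± 0.10 SE, −0.25 to 0.18). Part of the high count of Mga comes with its length, since its longest coding transcript has 13931 bases against 2338 in Myc.

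**Figure D3:**
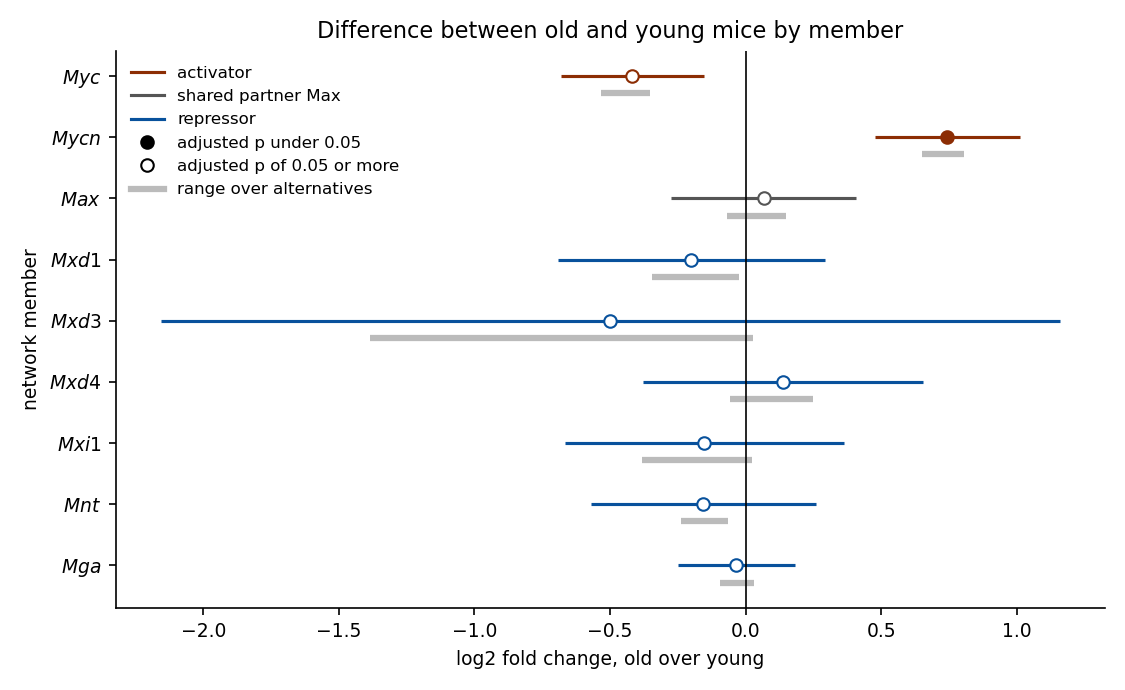
Log2 fold change of each tested member, old over young, with its 95% interval (coloured by role) and, below it in grey, the range over 16 alternatives. The interval of Mycn lies from 0.48 to 1.01 and the member is filled as called, the interval of Myc lies from −0.68 to −0.15 with an open symbol, and the other 7 intervals include 0.

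Levels were also compared between genes per kilobase of the longest coding transcript. In old mice the order was Myc with 106 ± 4.18, Mycn with 78.7 ± 3.76, Mga with 58.4 ± 3.55 and Max with 55.4 ± 6.52 CPM per kilobase (SD, n = 3). In young mice it was Myc with 142 ± 20.5, Mga with 59.9 ± 5.22, Max with 52.9 ± 8.95 and Mycn with 47.0 ± 5.40 CPM per kilobase. Mycn thus stood next to Myc in old mice and behind Mga and Max in young mice, while the difference between Mga and Max lay within the spread of the libraries at both ages, as did that between Max and Mycn in young mice. The repressors of the Mxd and Mnt type were all far lower. Mxi1 had 9.41 ± 1.71 CPM per kilobase in old and 10.4 ± 3.17 in young mice, and Mxd4, Mnt and Mxd1 had means between 6.03 and 7.33 in old and between 6.67 and 7.38 in young mice, differences among them that lay within the spread. Mxd3 was the lowest, with 1.20 ± 1.07 in old and 1.66 ± 0.542 CPM per kilobase in young mice.

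The activators set against the Mxd repressors gave no separation of the ages. The summed level of Myc and Mycn per kilobase was 185 ± 5.82 in old and 189 ± 25.8 in young mice, and that of Mxd1, Mxd3, Mxd4 and Mxi1 was 24.0 ± 2.12 in old and 25.7 ± 2.86 in young mice (CPM per kilobase, SD, n = 3 each). The ratio of these sums was 7.88, 6.82 and 8.63 in old replicates 1, 2 and 3, against 9.06, 7.72 and 5.68 in young replicates 1, 2 and 3. The lowest and the highest ratio were both in young libraries, and all old values lay between them. The mean ratio was 7.78 ± 0.911 in old and 7.49 ± 1.71 in young mice. With Mnt and Mga counted among the repressors it was 2.08 ± 0.0446 in old and 2.03 ± 0.237 in young mice. These ratios were given no test.

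**Figure D4:**
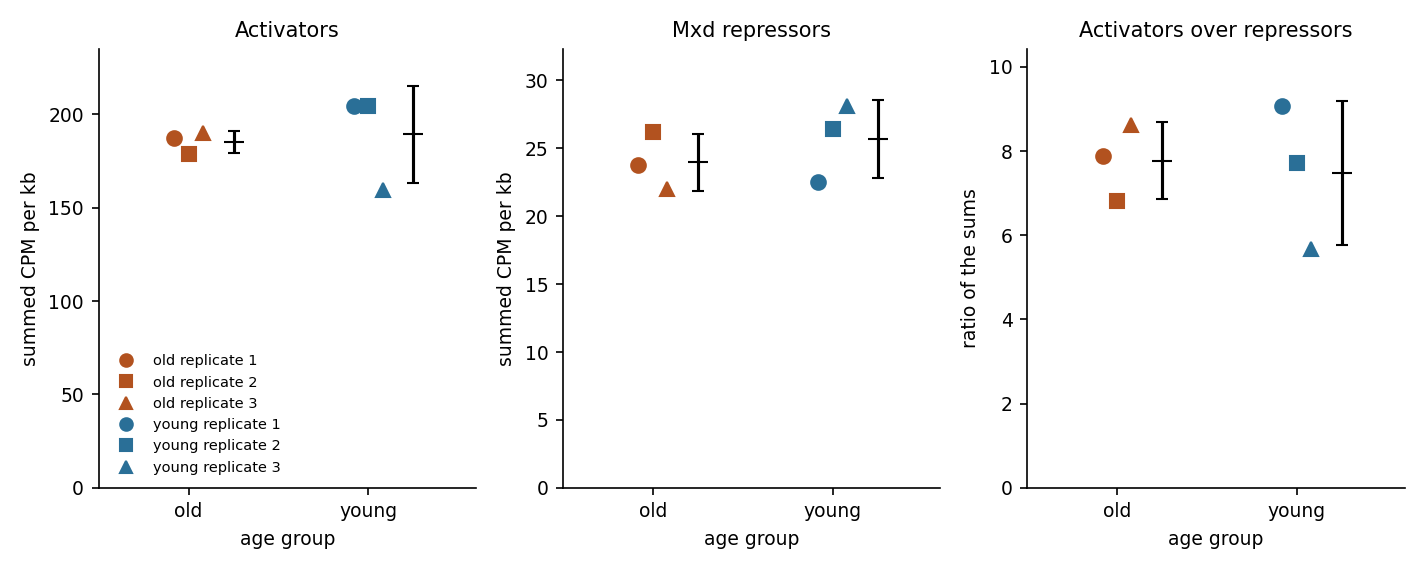
Summed CPM per kilobase of the activators (Myc and Mycn), of the Mxd repressors (Mxd1, Mxd3, Mxd4 and Mxi1) and the ratio of these sums, for each library, with the mean and SD of each group in black. All axes start at 0, and the ratio lies from 6.82 to 8.63 in old libraries, inside the range from 5.68 to 9.06 of the young ones.

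The authors' deposited table, whose log2 values run as young over old, gives Mycn a value of −0.73 with an adjusted p of 0.000157, and Myc a value of 0.33 with an adjusted p of 0.278. The lowest adjusted p of the other members in the authors' deposited table is 0.814. The sign of Mxd4 differs, since the authors' deposited table gives 0.19 as young over old whereas the counts gave 0.14 as old over young, and neither passed.

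The genes around the network were described through lists taken from general knowledge. For comparison, the median log2 fold change over all tested genes was −0.02. Of these genes 3.99% were called and 16.5% had an unadjusted edgeR p under 0.05. Of 49 tested Myc-activated genes, which serve ribosome production, nucleotide synthesis and growth, 1 rose and none fell, with a median of −0.09. An unadjusted edgeR p under 0.05 was reached by 8 of the 49, most of them lower in old mice. CACGTG lay in the promoters of 15 of the 44 that matched (34.1%), against 10.5% of the genes of the count table with a window. The gene that rose was Ldha, lactate dehydrogenase A of glycolysis, with 526, 567 and 560 CPM in old against 389, 449 and 411 CPM in young replicates 1, 2 and 3. Its groups did not overlap (log2 fold change 0.40 ± 0.10 SE, edgeR adjusted p = 0.0432), but the call was lost in each of the 6 fits with 1 library left out (adjusted p from 0.0565 to 0.180) and when TMM factors were left out (adjusted p = 0.0680). Without TMM factors or without young replicate 3 the called gene of this list was instead Npm1, a nucleolar chaperone gene that was lower in old mice and is named after its values were seen. Tmem97, a regulator of cholesterol transport, and Cad, an enzyme of pyrimidine synthesis, were next by p and did not pass in this fit, with log2 values of −1.27 and −0.57. Tmem97 was called in 3 and Cad in 2 of the 16 alternatives, and with DESeq2 or the likelihood ratio test the list had 2 higher and 2 lower calls.

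Of 9 tested Myc-repressed genes edgeR called none, 2 had an unadjusted p under 0.05, and DESeq2 and the likelihood ratio test called 1 each, as did the filter of 10 counts in every library of a group. The median of the list was 0.12 on the log2 scale. The cell cycle inhibitor gene Cdkn1a averaged 11.3 ± 3.84 CPM in old and 4.08 ± 0.917 CPM in young mice (SD, n = 3 each, edgeR adjusted p = 0.0556). The thrombospondin gene Thbs1 had a log2 value of −1.03 and the integrin gene Itgb1 one of 0.20, and neither passed.

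Among 10 tested genes of the parallel Mlx arm and of other E-box factors, 4 had an unadjusted p under 0.05 and the median was −0.20. After adjustment 1 rose and none fell. This was Txnip, an inhibitor of glucose uptake that is a known target of the factors MondoA and Mlx, with 1687, 1715 and 1668 CPM in old against 1025, 1307 and 883 CPM in young replicates 1, 2 and 3. Its old libraries lay close together and above all young ones (log2 fold change 0.66 ± 0.13 SE, edgeR adjusted p = 0.0126). The call was lost without any 1 old library (adjusted p = 0.0513, 0.0601 and 0.0565 without old replicates 1, 2 and 3). Arrdc4, a related target, had a log2 value of 0.56 (adjusted p = 0.0572) and the lysosomal factor gene Tfe3 one of 0.59 (adjusted p = 0.223), and neither passed in this fit. Arrdc4 was called in 4 of the 16 alternatives, namely DESeq2, the likelihood ratio test, limma-voom with quality weights and the filter of 10 counts in every library of a group, which gave the list 2 higher calls.

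Of 14 regulators of Myc protein stability 1 rose and none fell, with a median of −0.03, and 5 had an unadjusted p under 0.05. Pim1, a kinase known to phosphorylate and stabilise Myc, stood at 100, 103 and 97.6 CPM in old replicates 1, 2 and 3, against 45.1, 42.9 and 46.7 CPM in young replicates 1, 2 and 3. Each group kept within a narrow band and they were far apart (log2 fold change 1.16 ± 0.13 SE, 2.24-fold, edgeR adjusted p = 0.000555). Pim1 passed in all 16 alternatives, with a highest adjusted p of 0.00746. Usp28, a deubiquitinase that protects Myc, averaged 19.9 ± 0.346 CPM in old and 33.3 ± 1.68 CPM in young mice (SD, n = 3 each) and lay just outside the threshold (log2 fold change −0.75, adjusted p = 0.0503), and it was called in 7 of the 16 alternatives. Cip2a, an inhibitor of the phosphatase that destabilises Myc, had a log2 value of −0.91 (adjusted p = 0.0685) and was called in 3 of the 16 alternatives. With DESeq2, with the likelihood ratio test and without TMM factors the list thus had 1 higher and 2 lower calls, and 1 of each with upper quartile factors, the filters of 1 CPM and of 10 counts, and quality weights.

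The cofactors showed no calls. Of 15 Myc cofactors, 16 Sin3 and histone deacetylase corepressor genes and 11 Mga complex partners edgeR called none, with medians of −0.16, −0.06 and 0.02, and 2, 1 and 1 of them had an unadjusted p under 0.05. DESeq2 called 1 cofactor and 1 corepressor gene, limma-voom with quality weights 1 cofactor, and edgeR's likelihood ratio test 1 corepressor gene. The members with the smallest p were Hcfc1 of the cofactors (log2 fold change −0.34), Ing2 of the corepressors (0.73) and Tfdp1 of the Mga partners (−0.31). The chromatin remodelling gene Smarcb1 had a log2 value of −0.50, Sap30 and Ncor1 of the corepressors had values of 0.45 and −0.18, and Yaf2 and Pcgf6 of the Mga partners 0.31 and 0.13, and none of these passed.

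Genes of S phase and mitosis were lower in the same libraries in which Mycn was higher. Of 22 tested genes 17 fell and none rose, and 21 had an unadjusted p under 0.05. The median of the list was −0.90 on the log2 scale, and the summed level was 2198 to 2880 CPM in old and 4392 to 5149 CPM in young libraries. The leading genes were Mki67, which encodes the proliferation marker Ki-67 (log2 fold change −1.15), the topoisomerase gene Top2a (−1.11) and the mitotic kinase gene Aurkb (−1.35). The count was 11 without old replicate 1 and 9 without old replicate 3. TTTGGCGC, the motif chosen from the Mycn promoter, was found in 3 of the 19 promoters of this list that matched (15.8%). The share was 0.946% over the genes of the count table with a window. It lay in 1 of 9 matched Mga complex partners (11.1%), in 1 of 44 Myc-activated genes (2.27%) and in none of the other lists around the network. A link between this motif and the transcript levels was not tested.

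**Figure D5:**
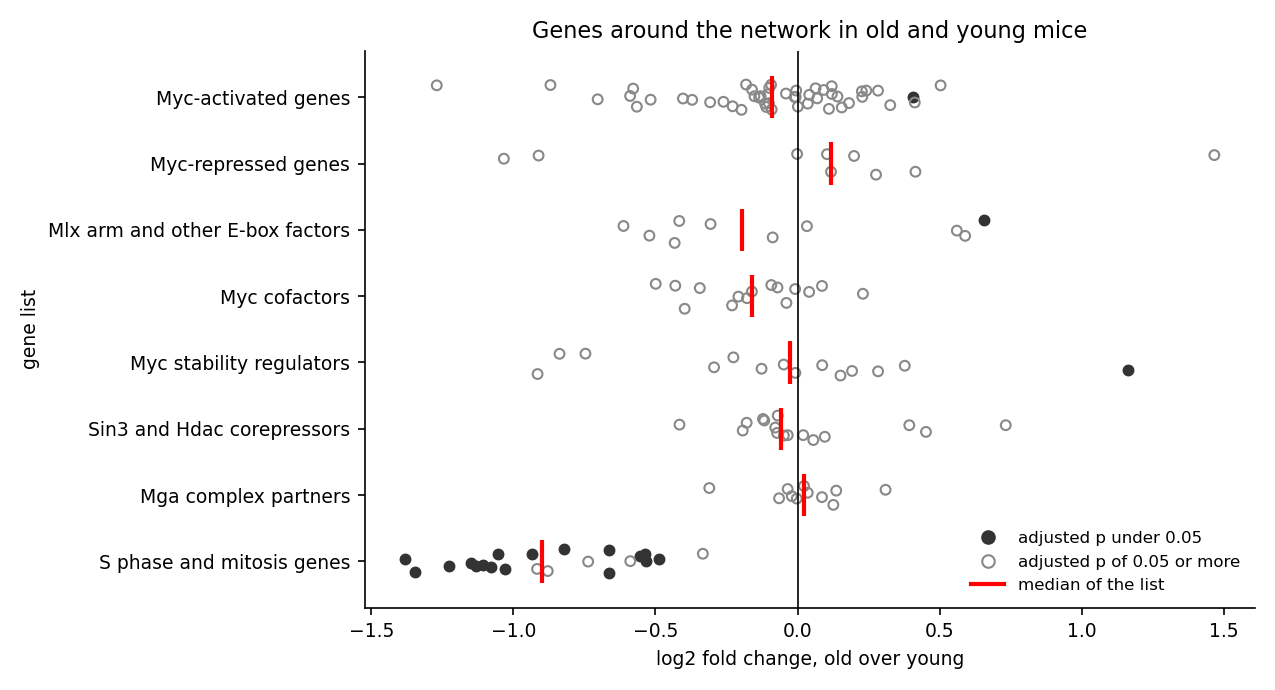
Log2 fold change, old over young, of the tested genes of 8 lists around the network, filled where the adjusted p is under 0.05, with the median of each list in red. The lists of activated and repressed Myc genes, Mlx arm, cofactors, stability regulators, corepressors and Mga partners have medians between −0.20 and 0.12 and hold 3 filled points, and the list of S phase and mitosis genes has a median of −0.90 with 17 filled points.

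Genes with a profile over the 6 libraries most like that of Mycn or Myc were ranked among protein-coding genes with a mean of 10 CPM or more, 9253 in number, by the root mean square difference of their centred log2 CPM. For Mycn these were Dnajb1, a co-chaperone of Hsp70 (difference 0.0710 on the log2 scale), Tgoln1, a protein of the trans-Golgi network (0.0777), and Plek, the protein kinase C substrate pleckstrin (0.0902), where the profile of Mycn itself had an SD of 0.389. All of them were higher in old mice, with log2 fold changes of 0.86, 0.61 and 0.76. For Myc, whose profile had an SD of 0.242, they were Grhpr, a reductase of glyoxylate (0.0510), Mmgt1, a membrane protein of the endoplasmic reticulum (0.0518), and Nudt5, a hydrolase of ADP-ribose (0.0565). None of these passed, with log2 fold changes of −0.48, −0.49 and −0.36. With 6 libraries in 2 groups such likeness mostly reflects the difference between the groups.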

How the data were processed

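The deposited table holds estimated counts per gene as whole numbers, and per the submitters' processing notes the tools were Salmon, DESeq2, FastQC and MultiQC and the build GRCm38, with no versions or roles given. A second table holds the authors' comparison, all as deposited by the authors: per gene a normalised signal averaged over samples, a log2 fold change with an error, a score of the test, and a p-value before and after adjustment. Libraries were grouped by their labels. The title and the description of young replicate 2 carry different library numbers, so the title decided its column. No library looked like another deposited again (chi-square over degrees of freedom of 20.5 to 77.6 for pairs of libraries).

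Tests used edgeR 4.0.16 under R 4.3.3, with limma 3.58.1 and DESeq2 1.42.0 as alternatives. edgeR's default filter (minimum count 10, minimum total 15) left 14288 genes. TMM factors were applied, the quasi-likelihood F test was two-sided with Benjamini-Hochberg adjustment and a threshold of 0.05, and the SE was the log2 fold change over the root of F. The script was tested on simulated data. The members and lists were chosen with earlier results of these data known. Named genes were all members, the leading 3 genes by p of each list, and the 3 nearest profiles (log2 CPM with a prior count of 2), and 1 gene that this rule names is not reported here. Marker genes named beside the summed levels were chosen after their values were seen. Intervals cover the spread between libraries.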

Additional observations from a re-analysis of the deposited data

How the results depend on the processing

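Of the 144 values of members under the 16 alternatives, 131 kept direction and side of the threshold, 4 brought Myc past it and 9 changed sign, none of them past the threshold. Of the network, 1 member was called in the fit reported and 2, with Myc, under library size scaling, DESeq2 and edgeR's likelihood ratio test, and 1 to 2 with 1 library left out. The count of changed genes was 1100 with DESeq2, 1031 with the likelihood ratio test and 245 to 473 with 1 library left out, and the cause was not tested. With 1 library left out, log2 values ran from −0.070 to 0.15 for Max, −1.39 to 0.026 for Mxd3, −0.058 to 0.25 for Mxd4, −0.38 to 0.024 for Mxi1 and −0.096 to 0.031 for Mga, and Mga was at 0.0049 with limma-voom and quality weights. The signs changed without old replicate 3 (Max, Mxd3, Mxd4), old replicate 2 (Mga), young replicate 1 (Mxd4, Mga), young replicate 2 (Mxi1) and young replicate 3 (Max). The log2 difference of the activator to repressor ratio, 0.07, ran from −0.11 without young replicate 3 to 0.23 without young replicate 1, and was at −0.0038 without old replicate 3. No paired analysis was possible because the labels give the groups no shared replicate numbers. Mxd3 rested on 6 to 86 counts per library.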
